A study of Mus musculus with 8 samples.

Results

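The cytosolic ribosomal proteins are the protein parts of the ribosome that works in the cytosol, and their messenger RNAs were followed here in sorted blood stem and progenitor cells of the mouse. Genes were taken from array probe sets with exactly 1 gene symbol, where that symbol was a ribosomal protein symbol of the large subunit (Rpl) or the small subunit (Rps) or was Rplp0, Rplp1, Rplp2 or Rpsa. Of 19958 genes measured on these terms, 31 fitted, 20 of the large subunit and 11 of the small subunit, through 104 probe sets. The RefSeq table of assembly GRCm38.p6 holds 84 protein-coding genes whose symbol fits the same rule, and 30 of them are among the 31. The remaining gene is not among those 84 protein-coding entries. Rps4l carries the older symbol Rps4y2 on the array and is given here under its current symbol. Another 5 symbols, Rpl13, Rps21, Rps24, Rps25 and Rps3a, lay only on probe sets with several symbols, and these as well as Rpsa, Rpl5, Rpl11, Rps6, Rpl10 and Rpl38 were not analysed here.

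RNA of lineage-negative, Sca1-positive and cKit-positive cells, the gate for stem and early progenitor cells of the blood, was amplified and hybridised to Affymetrix Mouse Gene 1.0 ST arrays. Hmga2-/- fetal liver at E14.5 gave 3 arrays, Hmga2+/+ fetal liver of the same day gave 3, and Hmga2+/+ bone marrow of adults 8 to 12 weeks old gave 2. Hmga2 encodes a chromatin protein of fetal cells, and the comparisons ask what its loss does in fetal liver and what sets fetal apart from adult cells. The labels call the arrays of a group biological replicates, and do not say how many animals gave each sample.

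Each ribosome joins a large subunit, which forms peptide bonds, to a small subunit, which reads the messenger RNA. Nearly every ribosomal protein is made in step with the others and comes from its own active gene, and its messenger RNA starts with a stretch of pyrimidines through which growth signals control its translation. Blood cells are known to be sensitive to a shortage of single ribosomal proteins, as in Diamond-Blackfan anaemia.

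Some facts of the arrays bear on what follows. The targeted gene matched its labels, with Hmga2 at 5.89, 5.88 and 6.08 on the log2 intensity scale in the knockout fetal arrays, 9.24, 9.01 and 8.83 in the wild-type fetal arrays and 6.61 and 7.19 in the adult arrays. Over all genes, however, wild-type fetal array 3 correlated at 0.974 to 0.975 with the knockout fetal arrays and at 0.957 to 0.965 with the other wild-type fetal arrays. Of the gate's marker list, 10 of 11 genes were above background, with Kit at 9.90, 9.64 and 9.84 in knockout fetal cells, 9.99, 10.07 and 9.78 in wild-type fetal cells and 10.28 and 10.17 in adult cells. Ly6a, which encodes the other positive sort marker Sca1, had 5.59, 6.34 and 7.25 in knockout fetal cells, 7.39, 6.64 and 6.65 in wild-type fetal cells and 8.99 and 8.44 in adult cells. It was thus lower in every fetal array than in both adult arrays, by -2.32 for knockout fetal minus adult (limma adjusted p = 0.0179) and by -1.82 for wild-type fetal minus adult (0.0592), and 1 knockout array was below background. For wild-type fetal minus adult 8 of the 11 gate genes were negative, 4 of them with p under 0.05 before adjustment. Of these 11, 0 were called lower and 1, Cd48, was called higher, by 1.19. Cd48 had 9.02, 9.38 and 9.06 in wild-type fetal cells and 7.70 and 8.23 in adult cells. The part of the gate in the results was not tested. Background was set as the 95th percentile of 980 olfactory receptor genes, a log2 intensity of 5.97. Of the other cell types, 2 of 9 red cell genes (Tfrc and Ermap) and 4 of 12 hepatocyte genes (Apoa1, Apoa2, Trf and Hnf4a) were above background on average. So were 6 of 13 granulocyte and macrophage genes, 6 of 8 megakaryocyte genes, 5 of 8 endothelial genes and 3 of 13 lymphocyte genes. For wild-type fetal minus adult, 0 genes of these other cell types were called higher. Called lower were 1 granulocyte and macrophage, 2 megakaryocyte and 1 lymphocyte gene, among them Ctsg, Pf4 and Dntt. Dntt, not above background on average, had 8.93 and 9.82 in adult arrays and at most 4.89 in fetal arrays. The part of other cell types in the results was not tested. Alb was above background in wild-type fetal array 3 only, at 6.65.

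The ribosomal protein genes were among the brightest on the array. Of the 31 genes, 26 were above background, 15 of the large and all 11 of the small subunit. A mean log2 intensity above 10 was reached by 15 of them, against 283 of all 19958 genes (1.42%). Rpl4, whose protein reaches into the tunnel through which new peptides leave, was highest of the large subunit at 12.19 averaged over 8 arrays. Rpl13a followed at 12.03 and Rpl30 at 11.88. In the small subunit Rps14, a gene lost in the human 5q- syndrome, stood at 12.04, Rps15 at 11.91 and Rps9 at 11.58. These values are not corrected for length or probe affinity, so they place genes on this array and do not rank their messenger RNAs.

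The 5 genes not above background were Rpl39l at 3.88, Rpl23a at 4.68, Rpl10l at 4.95, Rpl3l at 5.04 and Rpl36 at 5.82, all named for the large subunit. For Rpl3l this holds as averaged, while 2 of its 10 probe sets were above background, the brighter at 7.15. Rpl39l and Rpl10l are paralogues known from the testis and Rpl3l is one known from striated muscle. Rpl23a and Rpl36, by contrast, are ordinary ribosomal proteins, each measured here by 1 probe set. The Rpl36 probe set lies among probe sets of genes on chromosome 15 while RefSeq places the gene on 17, and that of Rpl31 lies among genes of chromosome 7 while the gene is on 1. RefSeq lists 138 pseudogenes named after 21 of the 31 genes, among them 24 for Rpl31, 23 for Rps12 and 13 each for Rpl23a and Rps19. Signal from such copies cannot be told apart from that of the gene by these values.

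**Figure D1:**
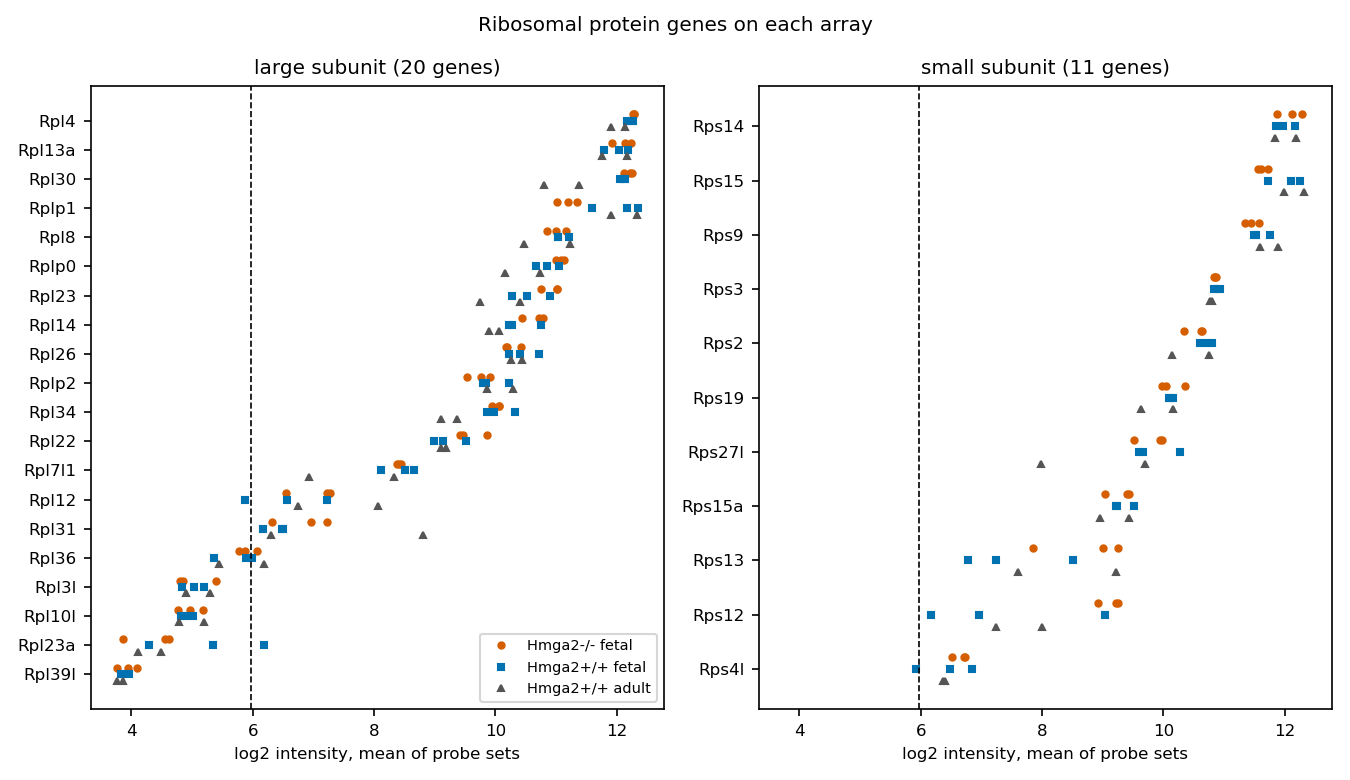
Log2 intensity (horizontal axis, mean over a gene's probe sets) of the 20 large subunit and 11 small subunit ribosomal protein genes. Each point is 1 array (circles knockout fetal, squares wild-type fetal, triangles adult), and the dashed line is background at 5.97. Most genes lie above 9 in all groups, and Rps12, Rps13 and Rpl31 spread most within groups.

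The spread between replicates differed widely among the genes. Averaged over groups as a within-group standard deviation, it ran from 0.04 for Rps3 to 0.97 for Rps12, with a median of 0.23 over the 26 genes above background. Rps3, which lines the messenger RNA entry channel, had 10.85, 10.84 and 10.86 in knockout fetal arrays, 10.94, 10.83 and 10.87 in wild-type fetal arrays and 10.81 and 10.77 in adult arrays. Rps19, the gene first found mutated in Diamond-Blackfan anaemia, had 10.04, 10.35 and 9.98 in knockout fetal arrays, 10.15, 10.11 and 10.09 in wild-type fetal arrays and 10.17 and 9.63 in adult arrays. Rps3 was lowest in both adult arrays by a small margin, and for Rps19 the groups overlapped.

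Wild-type fetal cells were compared with adult cells to ask how the fetal state differs, and as a whole the ribosomal protein genes were close to level. Of the 31 genes, 2 were higher in wild-type fetal cells by limma with Benjamini-Hochberg adjustment over all genes, and 0 were lower. Among all genes 3.19% were called in this comparison, 2.36% higher and 0.832% lower. Before adjustment, p was under 0.05 for 4 higher and 0 lower, against 11.3% and 7.29% of all genes. The arrays of the groups did not overlap for 5 of them, all higher in fetal cells, where 15.7% of all genes were higher without overlap and 20.1% lower. The median log2 fold change, fetal minus adult, was 0.08 over the 31 genes, against -0.06 over all genes. Over the 26 above background it was 0.09, with 0.20 for the large and 0.03 for the small subunit, against 0.15 over all genes above background and 0.29 over the 283 genes above 10. Here and below, a lower intensity in sorted cells cannot be told apart as fewer cells of a kind or less RNA in each, and RMA puts all arrays on 1 common distribution, so total RNA per cell is not measured.

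Rpl30, a large subunit protein at the face between the subunits, was 1 of the 2 genes called. It had 12.25, 12.12 and 12.23 in knockout fetal arrays, 12.05, 12.10 and 12.13 in wild-type fetal arrays, and 11.37 and 10.80 in adult arrays. All 6 fetal arrays lay above both adult arrays. The log2 fold change was 1.01 ± 0.19 (SE) for wild-type fetal minus adult (2.01-fold, limma adjusted p = 0.0282). For knockout fetal minus adult it was 1.11 ± 0.19 (2.16-fold, limma adjusted p = 0.0136), against the same 2 adult arrays.

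Rpl34, another large subunit protein, was the other gene called. It had 10.06, 10.07 and 9.94 in knockout fetal arrays, 9.97, 9.87 and 10.33 in wild-type fetal arrays, and 9.37 and 9.10 in adult arrays. Again no fetal array was as low as an adult one. The log2 fold change was 0.82 ± 0.19 (SE) for wild-type fetal minus adult (1.77-fold, limma adjusted p = 0.0493). For knockout fetal minus adult it was 0.78 ± 0.19 (1.72-fold, limma adjusted p = 0.0349).

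Both calls rested on 1 of 2 probe sets. The brighter probe set of Rpl30 averaged 13.16 in knockout fetal, 13.01 in wild-type fetal and 12.92 in adult arrays. Its dimmer probe set averaged 11.23 in knockout fetal, 11.18 in wild-type fetal and 9.25 in adult arrays. The step between fetal and adult cells therefore stood in the dimmer probe set, at 1.92 for wild-type fetal minus adult against 0.09 in the brighter one. The brighter probe set of Rpl34 averaged 12.50, 12.43 and 12.48 in knockout fetal, wild-type fetal and adult arrays, and the dimmer one averaged 7.55, 7.68 and 5.99. The adult mean of that dimmer probe set was thus near background. Fitted alone, over all probe sets of the array, of which 0.023% were called in this comparison, the dimmer probe set of Rpl30 had a limma adjusted p of 0.179 and that of Rpl34 had 0.243 for wild-type fetal minus adult.

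**Figure D2:**
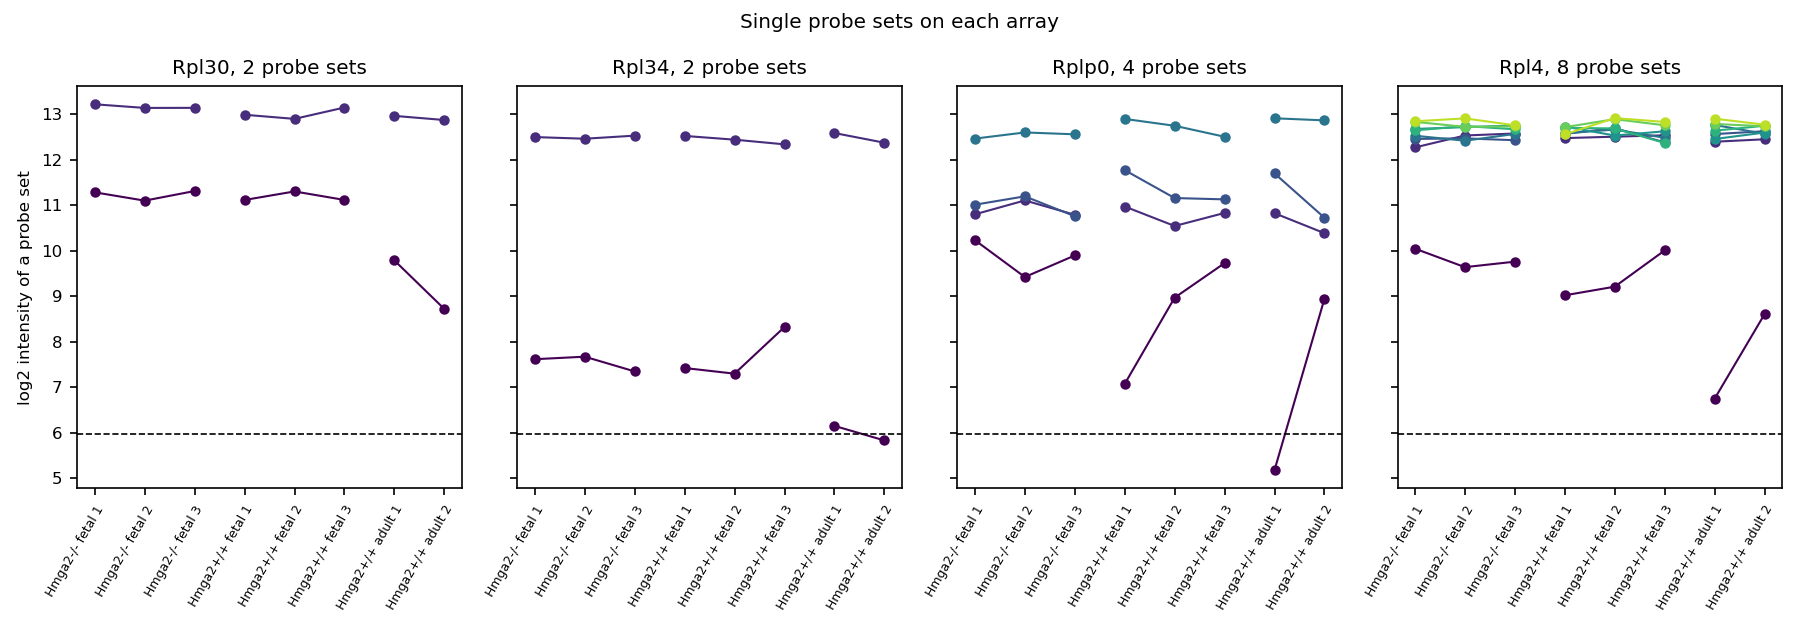
Log2 intensity (vertical axis) of every probe set of Rpl30, Rpl34, Rplp0 and Rpl4 on the 8 arrays (horizontal axis), with lines joining the values of 1 probe set within a group and a dashed line at background, 5.97. In each gene the brightest probe sets lie near or above 12.3 and differ little across groups, and the dimmest one is lower in adult arrays than in most fetal arrays.

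Other large subunit genes held a dim probe set of the same kind. In Rpl4, 7 of 8 probe sets averaged above 12 and moved by at most 0.11 in size between wild-type fetal and adult arrays. The eighth had 10.05, 9.64 and 9.76 in knockout fetal arrays, 9.02, 9.21 and 10.01 in wild-type fetal arrays and 6.75 and 8.61 in adult arrays. In Rplp0 the dimmest of 4 probe sets had 10.23, 9.42 and 9.90 in knockout fetal arrays, 7.08, 8.97 and 9.73 in wild-type fetal arrays and 5.18 and 8.94 in adult arrays. Its levels overlapped between wild-type fetal and adult cells. Over the 31 genes, 27 of 104 probe sets averaged above 12, against 0.318% of all probe sets with 1 symbol, and the brightest probe set of the array averaged 13.5. These 27 had a median size of difference of 0.09 between wild-type fetal and adult arrays, and the 57 other probe sets above background had 0.28. How far the brightest probe sets could still report a difference was not tested.

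The promoters of the genes were looked at for letters they share, since 24 of the 31 have entries in the RefSeq promoter table (GRCm38.p6), with 30 promoters in all. The letters GGAAGT, which hold the core bound by ETS factors, occurred on either strand in 12 of 30 (40%) and in 23.8% of all 32851 promoters. CTTTTC, a pyrimidine run, occurred on either strand in 9 of 30 (30%) and in 21.8% of all, and TATAAA in 3 of 30 (10%) and in 13.6% of all. Rpl34 has 2 listed starts, which are printed here because it was called, and Rplp2 and Rps15 are printed because they come up together below. Each line holds 50 bases before to 10 bases after the start, 5′ to 3′ on the gene's strand, with capitals for ACTTCC, which is GGAAGT on the other strand, and for CTTTTC, and a line with no capitals says only that these letters are not in this window.
Rpl34 start 1, chr3:130730389-130730448, minus strand: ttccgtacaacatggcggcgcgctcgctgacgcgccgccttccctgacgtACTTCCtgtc
Rpl34 start 2, chr3:130730328-130730387, minus strand: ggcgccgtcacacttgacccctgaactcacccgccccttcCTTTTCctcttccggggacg
Rplp2, chr7:141447601-141447660, plus strand: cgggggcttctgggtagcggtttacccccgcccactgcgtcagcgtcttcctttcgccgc
Rps15, chr10:80292381-80292440, plus strand: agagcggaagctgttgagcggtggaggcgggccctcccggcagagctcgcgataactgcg

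The next genes by p did not pass in wild-type fetal against adult cells. Rps27l, a paralogue of Rps27 known as a p53 target, had 9.52, 9.95 and 9.97 in knockout fetal arrays, 9.67, 9.60 and 10.27 in wild-type fetal arrays and 9.70 and 7.98 in adult arrays. Adult array 2 stood apart and adult array 1 was among the fetal values, and the fitted difference for wild-type fetal minus adult was 1.00 ± 0.43 (SE, limma adjusted p = 0.258). Rpl7l1, a relative of Rpl7, had 8.44, 8.37 and 8.41 in knockout fetal arrays, 8.66, 8.12 and 8.50 in wild-type fetal arrays and 8.33 and 6.93 in adult arrays, with the same array low. Its difference was 0.80 (limma adjusted p = 0.264). Rpl14 had 10.44, 10.78 and 10.71 in knockout fetal arrays, 10.27, 10.23 and 10.75 in wild-type fetal arrays and 9.89 and 10.06 in adult arrays, without overlap, and a difference of 0.44 (limma adjusted p = 0.288).

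Knockout fetal cells were set against the same 2 adult arrays, so the values that follow share them with the comparison above. Of the 31 genes, 2 were higher in knockout fetal cells, Rpl30 and Rpl34 as given, and 1 was lower, Rplp1. Among all genes 8.91% were called, 5.8% higher and 3.11% lower. Before adjustment, p was under 0.05 for 6 higher and 2 lower, against 14.7% of all genes in each direction. The arrays did not overlap for 11 genes higher and 3 lower, where 20.6% of all genes were higher without overlap and 29.6% lower. The median log2 fold change was 0.13 over the 31 genes, against -0.07 over all genes. Over the 26 above background it was 0.19, with 0.26 for the large and 0.10 for the small subunit, against 0.20 over all genes above background. Of those not passing, Rpl23 came next at 0.84 (limma adjusted p = 0.0657), then Rpl14 at 0.67 (0.0704) and Rplp0 at 0.63 (0.0836). The dimmer of the 2 probe sets of Rpl23 differed by 1.57 and the brighter by 0.11.

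Rplp1 encodes 1 of the acidic proteins of the stalk that draws translation factors to the large subunit. It had 11.02, 11.34 and 11.20 in knockout fetal arrays, 12.35, 12.17 and 11.60 in wild-type fetal arrays, and 12.33 and 11.90 in adult arrays. Every knockout array lay below every other array, and wild-type fetal array 3 was nearest to them. The log2 fold change was -0.93 ± 0.25 (SE) for knockout fetal minus adult (limma adjusted p = 0.0483). For knockout fetal minus wild-type fetal it was -0.85 ± 0.22, which did not pass (limma adjusted p = 0.577). Its probe sets both pointed the same way for knockout minus wild-type fetal, at -1.23 and -0.47.

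The other stalk proteins did not pass in any comparison. Rplp0, which anchors the acidic pair, had gene means of 11.13, 11.08 and 11.00 in knockout fetal arrays, 10.68, 10.85 and 11.05 in wild-type fetal arrays and 10.15 and 10.73 in adult arrays. Rplp2, the partner of Rplp1, had 9.53, 9.91 and 9.76 in knockout fetal arrays, 9.84, 10.23 and 9.80 in wild-type fetal arrays and 10.30 and 9.87 in adult arrays. The groups overlapped for Rplp2 as averaged. Its 2 bright probe sets differed by -0.60 and -0.40 for knockout minus wild-type fetal, and the third, which was not above background, differed by 0.32.

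**Figure D3:**
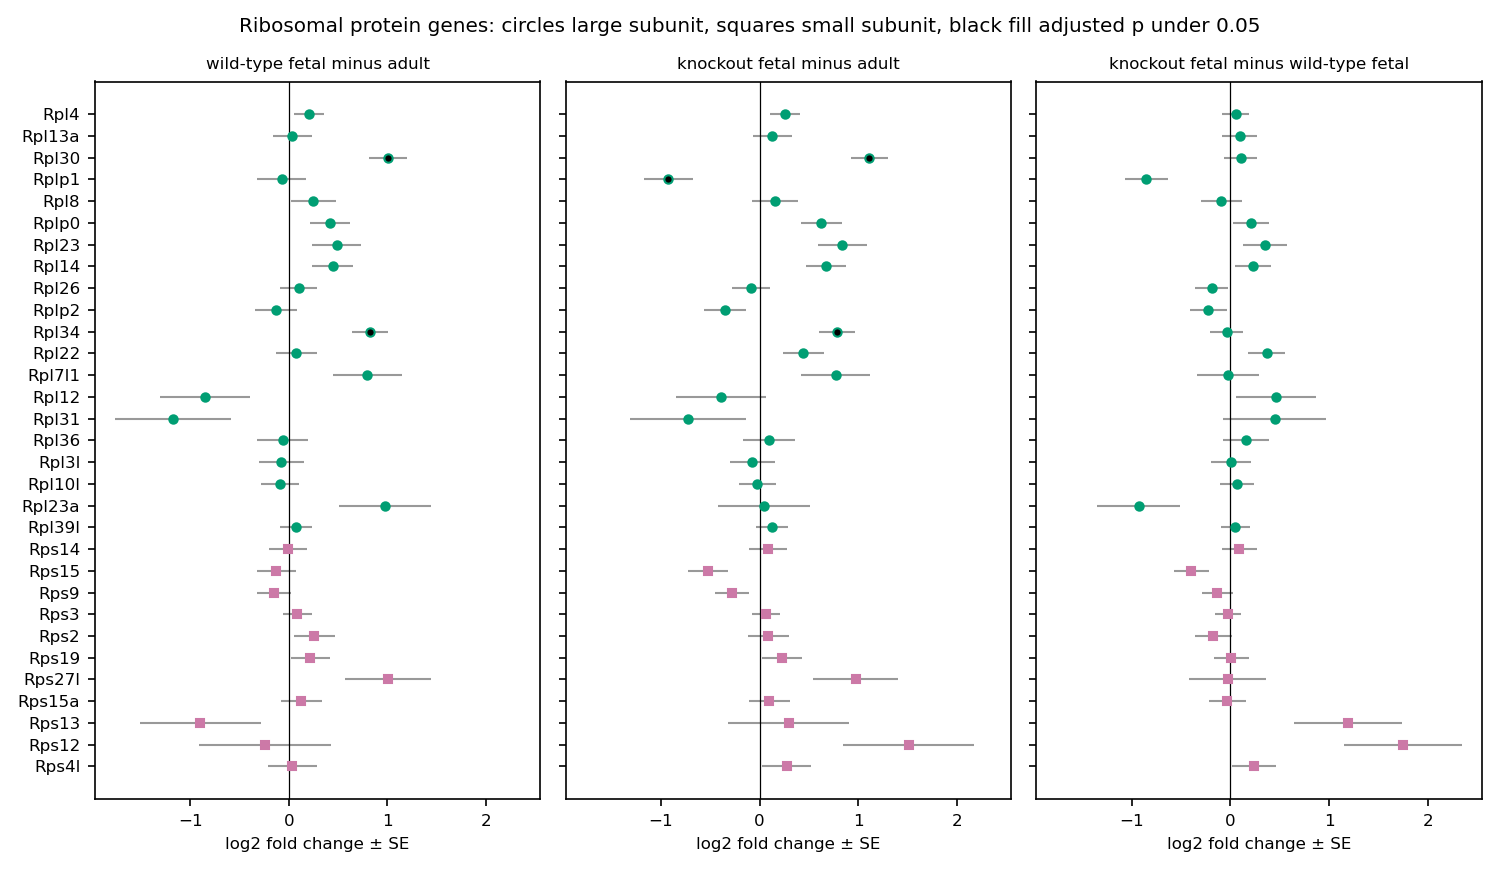
Log2 fold change with its standard error (horizontal axis) of each ribosomal protein gene in the 3 comparisons, large subunit as circles and small subunit as squares, from the highest to the lowest level within a subunit. Black centres mark an adjusted p under 0.05, found for Rpl30 and Rpl34 in both comparisons with adult cells, Rplp1 in knockout fetal minus adult, and no gene in knockout minus wild-type fetal.

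Knockout and wild-type fetal cells were compared to ask what loss of Hmga2 changes. None of the ribosomal protein genes was called by limma (0 of 31), where 0.01% of all genes were, that is 2 genes, both lower. At an unadjusted p under 0.05, 1 gene was higher (Rps12) and 1 lower (Rplp1), against 3.55% and 4.08% of all genes. The arrays of the groups did not overlap for 1 gene higher (Rpl4) and 1 lower (Rplp1), where 5.94% of all genes were higher without overlap and 7.86% lower. The median log2 fold change was 0.05 over the 31 genes, against -0.02 over all genes. Over the 26 above background it was 0.03, with 0.09 for the large and -0.02 for the small subunit, against 0.04 over all genes above background. On simulated arrays with the measured spreads the same fit found 58% of genes changed 2-fold and 4% of those changed 1.5-fold in this comparison, so small differences were not detectable with these arrays.

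Rps12, a protein of the beak of the small subunit, had the largest fitted difference of the 31 between the genotypes. It had 8.93, 9.22 and 9.26 in knockout fetal arrays, 6.17, 6.95 and 9.04 in wild-type fetal arrays, and 7.25 and 8.00 in adult arrays. Wild-type fetal array 3 was among the knockout values, and the other wild-type fetal arrays were below all adult and knockout arrays. The log2 fold change was 1.75 ± 0.60 (SE, limma adjusted p = 0.632). Without wild-type fetal array 3 it was 2.58 (limma adjusted p = 0.0638), and against that array alone it was 0.10. Only 1 gene of the 19958 had a larger positive difference between these groups. Rps12 was measured by 1 probe set.

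Rps13, which bridges the subunits, had 9.25, 9.00 and 7.85 in knockout fetal arrays, 6.78, 7.24 and 8.50 in wild-type fetal arrays and 9.22 and 7.60 in adult arrays. It spread as widely within groups as between them, with a fitted difference of 1.19 (limma adjusted p = 0.651). Rps15, which takes part in the export of the small subunit from the nucleus, had 11.56, 11.73 and 11.60 in knockout fetal arrays, 12.26, 12.11 and 11.72 in wild-type fetal arrays and 12.32 and 12.00 in adult arrays. Wild-type fetal array 3 lay just below the highest knockout array, and the fitted difference of -0.40 did not pass (limma adjusted p = 0.647). Rpl23a differed by -0.93 (limma adjusted p = 0.647) with both group means below background.

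The size of some other differences between the genotypes also changed with wild-type fetal array 3. Rplp1 differed by -1.07 without it (limma adjusted p = 0.118) and by -0.41 against it alone. Rps15 differed by -0.55 without it and by -0.09 against it alone, and Rpl23 by 0.52 and 0.01. Rpl30, by contrast, had 0.12 and 0.07. Which of the wild-type fetal arrays is the unusual one was not tested. Of the 26 genes above background, 22 (84.6%) were nearer in that array to the knockout mean than to the mean of the other wild-type fetal arrays, against 65.8% of all 9638 genes above background. On the first principal component of the 26 genes, which held 44.0% of their variance, it stood at 1.46. The knockout fetal arrays stood at 1.64, 1.61 and 1.23, the other wild-type fetal arrays at -2.20 and -1.47, and the adult arrays at -0.88 and -1.39. The genes were not scaled for this, so those of widest spread weigh most. Widest were Rps12 and Rps13, with standard deviations of 1.19 and 0.95 over all arrays and 1 probe set each. The hepatocyte marker list was also highest in wild-type fetal array 3, 0.44 above its mean over all arrays where the others lay between -0.16 and 0.02. Averaged over 8 arrays, 4 of its 12 genes were above background. In wild-type fetal array 3 these were above it too, and so were Alb at 6.65, Afp at 6.50 and, barely, Rbp4 at 5.97. The part of these genes in the values was not tested. With that array left out, 0 of 31 genes were called between the genotypes, and the median difference was 0.05.

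**Figure D4:**
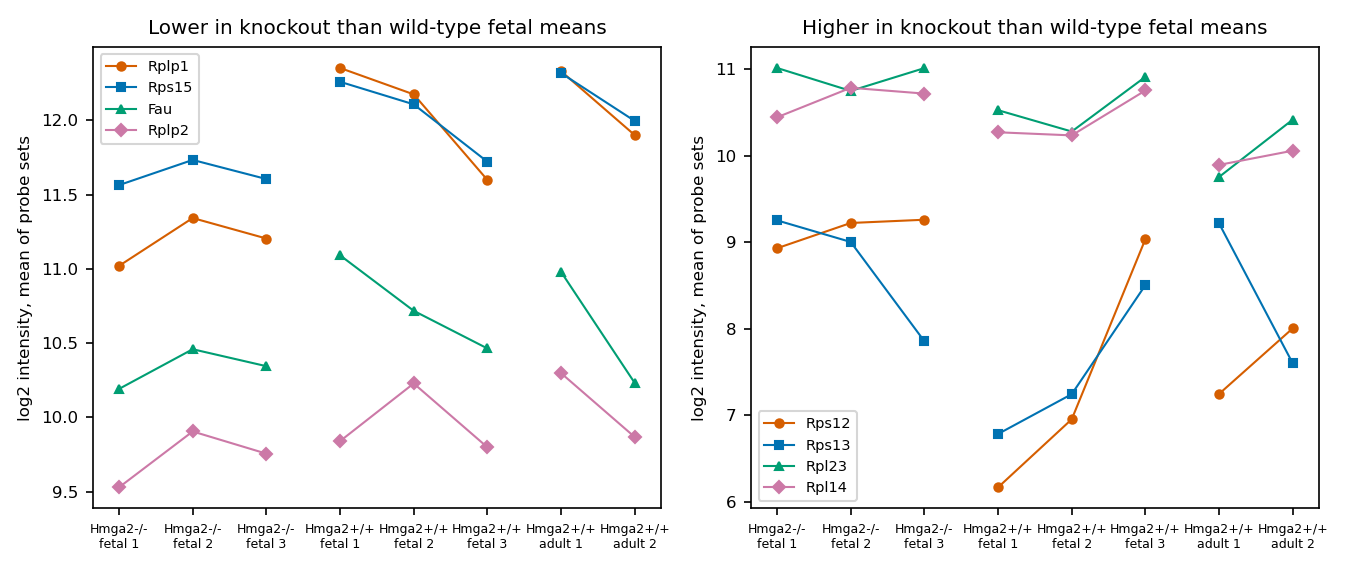
Log2 intensity (vertical axis) of Rplp1, Rps15, Fau and Rplp2 on the left and of Rps12, Rps13, Rpl23 and Rpl14 on the right for each of the 8 arrays (horizontal axis), with lines joining values of 1 gene within a group. Wild-type fetal array 3 lies nearer to the knockout fetal mean than wild-type fetal array 1 does in each gene shown, with the smallest gap in Rplp2.

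Fau, whose product carries the small subunit protein eS30 fused to a ubiquitin-like part and whose symbol lies outside the rule, had 10.19, 10.46 and 10.34 in knockout fetal arrays, 11.09, 10.72 and 10.46 in wild-type fetal arrays and 10.98 and 10.23 in adult arrays. The knockout arrays lay below the wild-type fetal arrays, and the difference of -0.43 did not pass (limma adjusted p = 0.671). Rpl22, which is dispensable for most translation and known for its part in T cell development, had 9.86, 9.42 and 9.47 in knockout fetal arrays, 9.14, 9.00 and 9.51 in wild-type fetal arrays and 9.18 and 9.10 in adult arrays. Its difference between the genotypes was 0.37 (limma adjusted p = 0.664). Of the genes mutated in Diamond-Blackfan anaemia, 4 were measured. Rps19, Rps15a, Rpl26 and Rpl31 differed by 0.01, -0.03, -0.19 and 0.45 between the genotypes, with none passing.

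Among the paralogues, Rps27l and Rpl7l1 were well above background and Rps4l was near it. Rps4l had 6.51, 6.72 and 6.73 in knockout fetal arrays, 6.48, 6.84 and 5.91 in wild-type fetal arrays and 6.37 and 6.39 in adult arrays, and the fetal groups overlapped. Its 2 probe sets differed by -1.17 and 1.24 for wild-type fetal minus adult, and the first was not above background. With only probe sets above background Rps4l was called higher against adult cells, in wild-type fetal cells (limma adjusted p = 0.0451) and in knockout fetal cells (0.0210). Between the genotypes Rps27l differed by -0.03, Rpl7l1 by -0.02 and Rps4l by 0.24, with none passing.

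Genes that build and feed the ribosome were read beside its proteins, from lists of their own. Each measured gene of the biogenesis, polymerase, initiation, elongation and regulator lists was above background. Of the 9638 genes above background, 6020 were positive for wild-type fetal minus adult and 456 were called higher, and before adjustment p was under 0.05 for 2105 higher and 586 lower. Of 44 ribosome biogenesis factors, 42 were positive for wild-type fetal minus adult, with a median log2 fold change of 0.55, and 1 was called. The called gene was Nip7, a factor of large subunit assembly, which was at least 2.35-fold higher in wild-type fetal cells (limma adjusted p = 0.0488), its adult mean being below background. The median of 0.55 stands beside 0.09 for the ribosomal proteins above background and 0.15 for all genes above background. Among 29 genes of RNA polymerases I and III, 25 were positive with a median of 0.41, and 2 were called, Polr3g at 1.74 (limma adjusted p = 0.0134) and Gtf3c1 at 0.81 (0.0316). Polr3g is a subunit of the polymerase that makes 5S ribosomal RNA and transfer RNA, and Gtf3c1 belongs to its initiation factor TFIIIC.

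Translation factors showed a like pattern in the initiation list. Of 32 initiation factors, 29 were positive for wild-type fetal minus adult with a median of 0.53, and 1 was called, Eif3l, a subunit of the initiation factor that binds the small subunit, at 1.33 ± 0.22 (SE, limma adjusted p = 0.0158). Of 13 elongation and release factors 0 were called, with a median of 0.29, and an unadjusted p under 0.05 was reached by 5 higher and 1 lower. The gene lower there was Tpt1, a single-probe-set gene known for control of its translation by growth signals, at -1.84 (limma adjusted p = 0.0601). Among 20 regulators of ribosomal protein messenger RNAs and growth 0 were called by limma, an unadjusted p under 0.05 was reached by 6 higher and 0 lower, and the median was 0.26.

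Knockout fetal cells were set against the same adult arrays for these lists, in a comparison where 1094 of the 9638 genes above background were called higher and 6209 were positive. The counts called higher were 11 of 44 biogenesis factors, 9 of 29 polymerase genes, 10 of 32 initiation factors, 2 of 13 elongation and release factors and 3 of 20 regulators, with 0 called lower in any of them. Utp20 and Utp18, which process the small subunit's RNA precursor, were higher by 1.24 (limma adjusted p = 0.0103) and 1.41 (0.0111). Eif4e, which binds the cap of messenger RNAs, was higher by 1.47 (0.0155), and Eif2s1, a subunit of the factor that brings the initiator transfer RNA, by 1.46 (0.0198). The medians were 0.62 for biogenesis, 0.59 for the polymerases and 0.58 for initiation, beside 0.19 for the ribosomal proteins above background. Over all genes above background the median was 0.20, and over the 283 genes above 10 it was 0.25. Genes of S, G2 and M phase moved with these lists, lying 0.25 to 0.39 above their mean over all arrays in knockout fetal cells, 0.10 to 0.40 above it in wild-type fetal cells and 0.69 to 0.91 below it in adult cells, and their part was not tested.

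**Figure D5:**
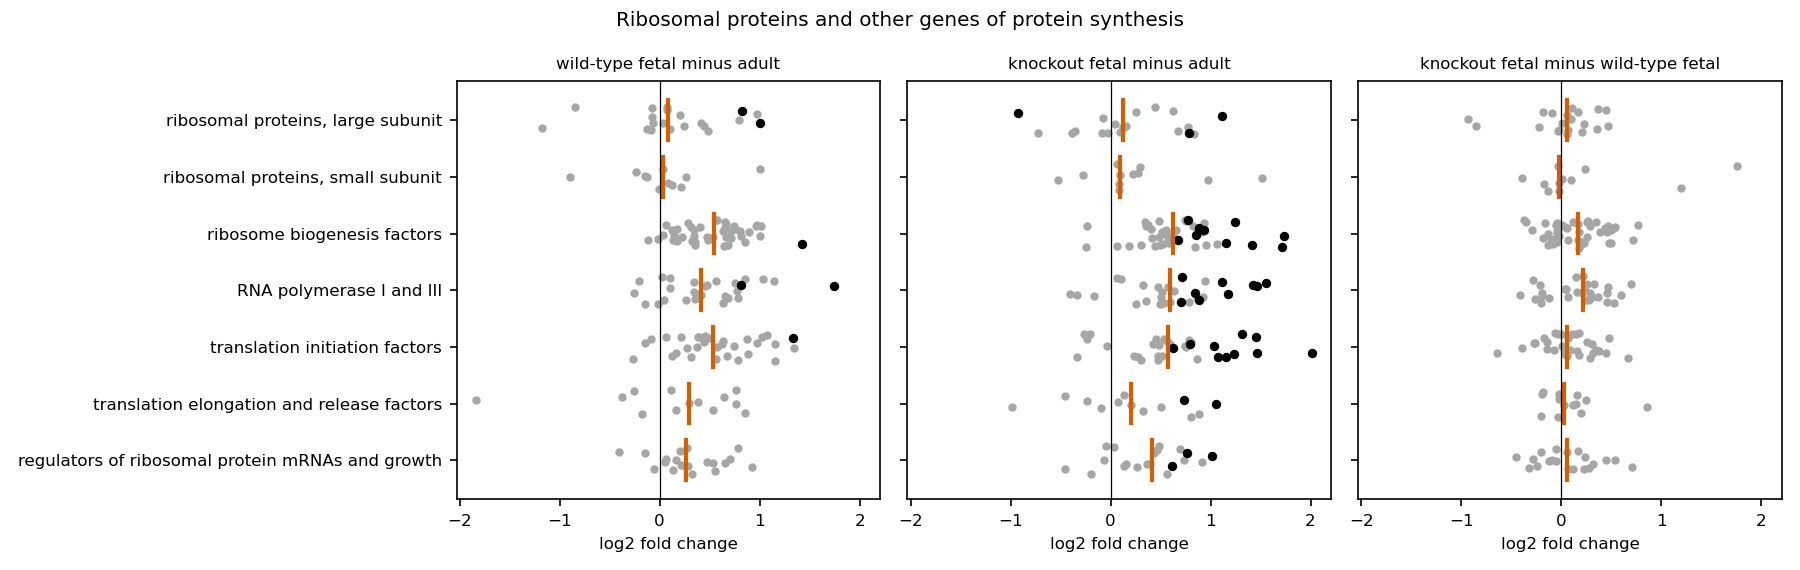
Log2 fold change (horizontal axis) of each gene of the large and small ribosomal subunits and of 5 lists of related genes, in the 3 comparisons; vertical position within a row has no meaning. Black points have an adjusted p under 0.05 and vertical bars are medians, which for both comparisons with adult cells lie at 0.13 or less for the ribosomal proteins, those below background included, and from 0.41 to 0.62 for biogenesis factors, polymerases and initiation factors.

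Between the genotypes none of the genes of these lists was called (limma, 0 in each list). At an unadjusted p under 0.05, 3 of 44 biogenesis factors and 3 of 29 polymerase genes were higher and 0 lower. Of 32 initiation factors 0 were higher and 1 lower, of 13 elongation and release factors 0 and 0, and of 20 regulators 1 and 0. Of the 9638 genes above background, 502 were higher and 326 lower at this limit. The medians for knockout minus wild-type fetal were 0.17 for biogenesis factors, 0.22 for polymerase genes and 0.06 for initiation factors. Against wild-type fetal array 3 alone they were -0.01, -0.05 and -0.02, and without it 0.16, 0.27 and 0.17. Of 8 genes of the p53 response to ribosomal stress, Cdkn1a, an inhibitor of the cell cycle, had the smallest p. It had 5.87, 6.52 and 5.43 in knockout fetal arrays, 7.43, 7.17 and 6.48 in wild-type fetal arrays and 7.10 and 6.99 in adult arrays, and the fitted difference of -1.09 did not pass (limma adjusted p = 0.592). Knockout fetal arrays 1 and 3 were below background for this gene.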

How the data were processed

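The deposited table holds linear intensities made with RMA, per the submitters' processing notes, its version not given in the sources used here. Intensities were log2 transformed with no further normalization, and the values of all probe sets of a platform symbol were averaged, which gave 19958 genes. Groups were compared with limma 3.58.1 in R 4.3.3 (lmFit, eBayes), with 8 arrays in 1 fit, 5 residual degrees of freedom and Benjamini-Hochberg adjustment over all genes, with a call at an adjusted p under 0.05. Where a called gene's dimmer group lay below background, its fold is a lower bound set against background. Differences of other genes whose means lie below background are measured differences only.

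The members and lists were chosen with earlier results of these data known. Genes were named as follows: those called, else the 5 with the smallest p, the 3 highest and 3 lowest in level per subunit, a fixed set of stalk, disease and paralogue genes, and up to 4 per related list. Rpl31, Rpl36, Rps3, Rps15a, Rpl26, Fau, the marker genes and the probe sets of Rpl4 and Rplp0 were named after their values were seen. Simulated arrays of 19958 genes with seeded changes gave 4, 58, 98 and 100% recovery for 1.5-, 2-, 3- and 4-fold changes in knockout against wild-type fetal cells, 2, 44, 94 and 98% in wild-type fetal against adult cells, and 6, 50, 96 and 98% in knockout fetal against adult cells. Same-numbered arrays did not deviate together (correlations from -0.04 to 0.11), so the numbers were not used as pairs. Precision is limited by the number of arrays, and the tests cover only the spread among these samples. Alternatives were other variance priors, weights, filters, normalizations, probe set summaries, the deposited exon table, a replicate block and each array left out.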

Additional observations from a re-analysis of the deposited data

How the results depend on the processing

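Calls among the 31 genes were few and depended on the setting. For wild-type fetal minus adult the count of 2 became 0 in the fit on only those groups, 0 with the replicate block, 0 with the median of probe sets and 0 without wild-type fetal arrays 1 and 2 together. It was 1 with a robust variance prior, 1 with array weights, 1 after quantile normalization and 1 from the exon table, and ran from 0 to 4 with each array left out, the 4 without adult array 1. For knockout fetal minus adult the count of 3 became 1 with the replicate block, 1 with the median of probe sets, 1 from the exon table, 6 at an adjusted p under 0.10, and 1 to 6 with each array left out, the 6 without wild-type fetal array 3. Its median of 0.13 was 0.035 with the median of probe sets and ran from 0.044 to 0.333 with arrays left out, the highest without adult array 1. Between the genotypes the count was 0 in every alternative. Rpl30 kept an adjusted p under 0.05 in 14 of 25 alternatives for wild-type fetal minus adult and in 23 of 25 for knockout fetal minus adult, Rpl34 in 6 and 15 of 25, and Rplp1 in 11 of 25 for knockout fetal minus adult. The brighter probe set of Rpl34 alone gave -0.046 for wild-type fetal minus adult, with the sign turned. Biogenesis factors called higher ran from 0 to 10 in wild-type fetal minus adult and from 2 to 20 in knockout fetal minus adult, and their medians from 0.37 to 0.69 and from 0.48 to 0.72. Over the named ribosomal protein genes and their alternatives, 55 values kept their sign but no longer passed, and 1 had its sign turned. Another 18 passed that had not, some of them only at the wider limit of 0.10 or with 1 adult array left. Single genes of the related lists are not in these counts. The causes were not tested. Alternatives on single probe sets, on wild-type fetal arrays 1 and 2 together and on the lists were chosen after seeing the data.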

Other observations

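Over the 8 arrays, the genes outside the rule whose log2 level ran most like the mean of the 26 ribosomal protein genes above background were Fam72a (Pearson r = 0.994), Man1a2 (0.989), Cox17 (0.989), Zfp971 (0.978) and Rpp38 (0.977), picked as the highest of all genes and given as a description. Fam72a was not above background, and Cox17, which carries copper to cytochrome c oxidase, averaged 10.12. The mean of the 26 genes was 10.11, 10.14 and 10.16 in knockout fetal arrays, 9.94, 9.93 and 10.15 in wild-type fetal arrays and 9.98 and 9.82 in adult arrays.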
